A study of Mus musculus with 8 samples.

Results

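The inhibin, activin and follistatin system was followed through 9 genes: the subunit genes Inha, Inhba and Inhbb, the binding proteins Fst and Fstl3, and the receptor genes Tgfbr3, Acvr2a, Acvr2b and Acvr1b. They were chosen by name for their roles, with earlier results of these data known. All 9 were found among the 23235 gene symbols of the deposited table. Of these 9 genes, 8 passed the filter on low values (at least 1 FPKM, fragments mapped to a gene scaled by its length and by the library's total, in at least 2 libraries) that left 13688 genes, and Acvr1b did not.

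Inhibins are dimers of the alpha subunit made from Inha with a beta subunit, made from Inhba (beta A) or Inhbb (beta B), whereas activins are dimers of beta subunits alone. Granulosa cells of growing follicles are the main ovarian source of inhibin, which travels to the pituitary and lowers the release of FSH, while activin raises it and also acts within the follicle. Activin binds the type II receptors Acvr2a and Acvr2b, which recruit the type I receptor Acvr1b. Inhibin blocks that step by binding type II receptors together with the co-receptor Tgfbr3 (betaglycan), and follistatin (Fst) and Fstl3 bind activin and keep it from its receptors.

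RNA was sequenced from mouse ovarian granulosa cells, the somatic cells around the oocyte, in 8 libraries of 4 groups with 2 libraries each. The groups were CNOT6/6L knockout (KO) treated for 44 h with PMSG, which acts on the ovary like FSH, wild type (WT) treated likewise, KO without treatment (0 h) and WT without treatment (0 h). All animals were female and of the C57BL/6 strain, and the source names mark the KO as a Cnot66l double knockout. CNOT6 and CNOT6L are deadenylases of the CCR4-NOT complex, which shortens mRNA poly(A) tails. The labels give no age, PMSG dose, Cre driver or number of animals in a library, and do not say if replicates are separate animals: the p-values then reflect the spread between libraries alone, and that spread may be technical. In bulk RNA, fewer cells of a type and less RNA per cell cannot be told apart.

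The relative depth of the libraries, estimated from the commonest ratio between their FPKM values under 0.5, was 0.904 to 1.25 times the median library (13.5% to 17.0% of such genes lay at that ratio), and FPKM sums ranged from 675557 to 753216. Cnot6 was 26.7 and 17.4 FPKM in 44 h KO cells, against 26.0 and 26.9 in 44 h WT cells, so the 44 h library labelled KO replicate 1 lay within the WT range, and it was 11.7 and 12.0 in 0 h KO cells, against 29.1 and 18.4 in 0 h WT cells. Cnot6l was 2.01 and 1.61 in 44 h KO cells, against 4.20 and 2.63 in 44 h WT cells. By Cnot6l the 44 h library labelled KO replicate 1 thus lay below the WT libraries of its time. At 0 h Cnot6l was 4.69 and 1.97 in KO cells, against 6.11 and 7.07 in WT cells. FPKM over a whole gene can stay above 0 when the deletion removes only some of its exons. Of the genes tested, 11.2% were at least 2-fold apart between the KO libraries at 44 h, against 2.32% to 3.16% in the other groups, and results on KO at 44 h are therefore given per library. The 11 granulosa markers summed to 4675 and 5190 FPKM in 44 h KO cells, 3962 and 4035 in 44 h WT cells, 3800 and 3857 in 0 h KO cells and 4167 and 3780 in 0 h WT cells. Gja1, a gap junction gene, made up most of each sum, at 2790 to 3982 FPKM, and the other markers did not move together. Amh was 46.4 and 8.47 FPKM in 44 h KO cells, against 81.3 and 61.6 in 0 h KO cells, while in WT it was 19.1 and 20.5 at 44 h, against 72.8 and 104 at 0 h. Cyp19a1, the aromatase gene, was 29.4 and 122 FPKM in 44 h KO cells, against 11.1 and 13.8 in 0 h KO cells, while in WT it was 96.4 and 130 at 44 h, against 16.8 and 9.55 at 0 h.

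Inhba and Inhbb were the members that passed the test in some of the fits described below, and the sequences around their start sites are shown for that reason. They are RefSeq windows on the GRCm38.p6 build, from 250 bases before to 50 bases after a start site. Inhba lies on chr13:16011601-16011900 (plus strand), at a start site 7595 bases inside the annotated gene, and Inhbb on chr1:119422199-119422498 (minus strand), at the start of its gene. Capitals mark matches to the motifs searched on both strands.
Inhba: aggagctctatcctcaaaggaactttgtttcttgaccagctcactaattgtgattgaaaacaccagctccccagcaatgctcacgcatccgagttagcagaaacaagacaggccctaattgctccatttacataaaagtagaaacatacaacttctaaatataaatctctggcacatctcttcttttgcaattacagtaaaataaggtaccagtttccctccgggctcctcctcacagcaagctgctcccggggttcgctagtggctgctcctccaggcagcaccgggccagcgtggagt
Inhbb: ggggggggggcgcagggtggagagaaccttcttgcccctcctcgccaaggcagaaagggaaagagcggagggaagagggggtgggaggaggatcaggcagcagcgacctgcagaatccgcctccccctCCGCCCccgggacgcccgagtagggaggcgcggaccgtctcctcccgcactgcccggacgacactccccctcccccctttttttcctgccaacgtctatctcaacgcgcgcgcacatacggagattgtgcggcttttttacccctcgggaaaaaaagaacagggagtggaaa

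The motifs were the cAMP response element TGACGTCA and its core TGACG, which lies inside it, the NR5A site CAAGGNCA, the GATA site GATAA and the GC box GGGCGG. Of 32851 windows of this length they were present in 1.79%, 20.8%, 6.71%, 25.4% and 35.7%, in that order. Among the 7 members with a window (Inha, Inhba, Inhbb, Fstl3, Acvr2a, Acvr2b and Acvr1b), the GC box was found in 5 and the other motifs in 0. The GC box of Inhbb starts 122 bases before its start site (position -122). The Inha window lies around a start site 532 bases inside the annotated gene, and that of Acvr2b around one 595 bases inside, so these windows and that of Inhba do not cover the first annotated start.

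Inha, which encodes the alpha subunit, was the most abundant entry of the whole table in 7 of 8 libraries and ranked 2 in WT replicate 1 at 0 h, behind a short RNA entry (Mir3064). It was 23238 FPKM in the 44 h library labelled KO replicate 1 and 13862 in KO replicate 2, against 10434 and 13006 in 44 h WT cells. At 0 h it was 10254 and 10433 in KO, against 9428 and 8434 in WT. The KO libraries lay above the WT libraries at both times, and the libraries at 44 h lay above those at 0 h within each genotype. Inha alone made up 3.09% of the FPKM sum in the 44 h library labelled KO replicate 1, against 1.23% to 2.02% in the other 7.

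None of the Inha differences passed the test in the fit over all 8 libraries. On the log2(FPKM + 1) scale, which is used for every difference below and understates the change of low genes, 44 h lay above 0 h by 0.80 in KO (SE 0.320, limma adjusted p = 0.220) and by 0.39 in WT (SE 0.320, adjusted p = 0.492). KO lay above WT by 0.62 at 44 h (adjusted p = 0.554) and by 0.21 at 0 h (adjusted p = 0.906). Without the library labelled KO replicate 1 the difference at 44 h was 0.25 (adjusted p = 0.845), and without KO replicate 2 it was 1.00 (adjusted p = 0.0529). The change in KO was 0.42 without the library labelled KO replicate 1 and 1.17 without replicate 2.

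Inhba, the beta A gene, had the largest difference between times among the 8 tested members, in both genotypes. It was 1300 FPKM in the 44 h library labelled KO replicate 1 and 3879 in KO replicate 2, against 511 and 360 in 0 h KO cells. In WT it was 2520 and 3097 at 44 h, against 965 and 481 at 0 h. Every library at 44 h lay above every library at 0 h, and the library labelled KO replicate 1 lay between the WT ranges of the 2 times. That library was 2.98 times the KO 0 h mean and 0.463 times the WT 44 h mean, whereas KO replicate 2 was 8.90 times and 1.38 times those means.

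The Inhba difference between 44 h and 0 h was 2.39 in KO (SE 0.541, limma adjusted p = 0.113) and 2.03 in WT (SE 0.541, adjusted p = 0.111), and neither passed the threshold of 0.05 in the fit over all 8 libraries. Inhba passed in the 4 WT libraries fitted alone (2.03, adjusted p = 0.0364) and in WT with either KO library at 44 h left out (adjusted p = 0.0227 and 0.0223). In KO it passed without the library labelled KO replicate 1 (3.17, adjusted p = 0.0120) and not without replicate 2 (1.60, adjusted p = 0.134). With a group reduced to 1 library, that library is assumed to vary like the other groups. Leaving out a KO library at 44 h removes the spread of that pair from the fit and does not move the WT difference.

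Inhbb, the beta B gene, was also higher at 44 h, at a lower level than Inhba in every library. It was 194 FPKM in the 44 h library labelled KO replicate 1 and 273 in KO replicate 2, against 91.3 and 96.4 in 0 h KO cells. In WT it was 195 and 220 at 44 h, against 132 and 101 at 0 h. The times did not overlap in either genotype, and the library labelled KO replicate 1 lay just below the WT libraries of its time.

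The Inhbb difference between times was 1.28 in KO (SE 0.213, limma adjusted p = 0.0813) and 0.84 in WT (SE 0.213, adjusted p = 0.109). It passed in the 4 WT libraries fitted alone (adjusted p = 0.0498) and in WT with either KO library at 44 h left out (adjusted p = 0.0323 and 0.0321), and in KO without the library labelled KO replicate 1 (1.53, adjusted p = 0.0113) but not without replicate 2 (1.04, adjusted p = 0.0998). At 0 h Inhbb was lower in KO than in WT in both libraries (-0.29, adjusted p = 0.754), and Inhba had a difference of -0.67 (adjusted p = 0.782) with the ranges overlapping. Without WT replicate 1 at 0 h these differences were -0.10 for Inhbb and -0.17 for Inhba, and without WT replicate 2 they were -0.49 and -1.17. At 44 h the genotype difference was 0.15 for Inhbb (adjusted p = 0.816) and -0.31 for Inhba (adjusted p = 0.849). Without the library labelled KO replicate 1 the Inhba difference at 44 h was 0.47, and without KO replicate 2 it was -1.10 (adjusted p = 0.157).

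**Figure D1:**
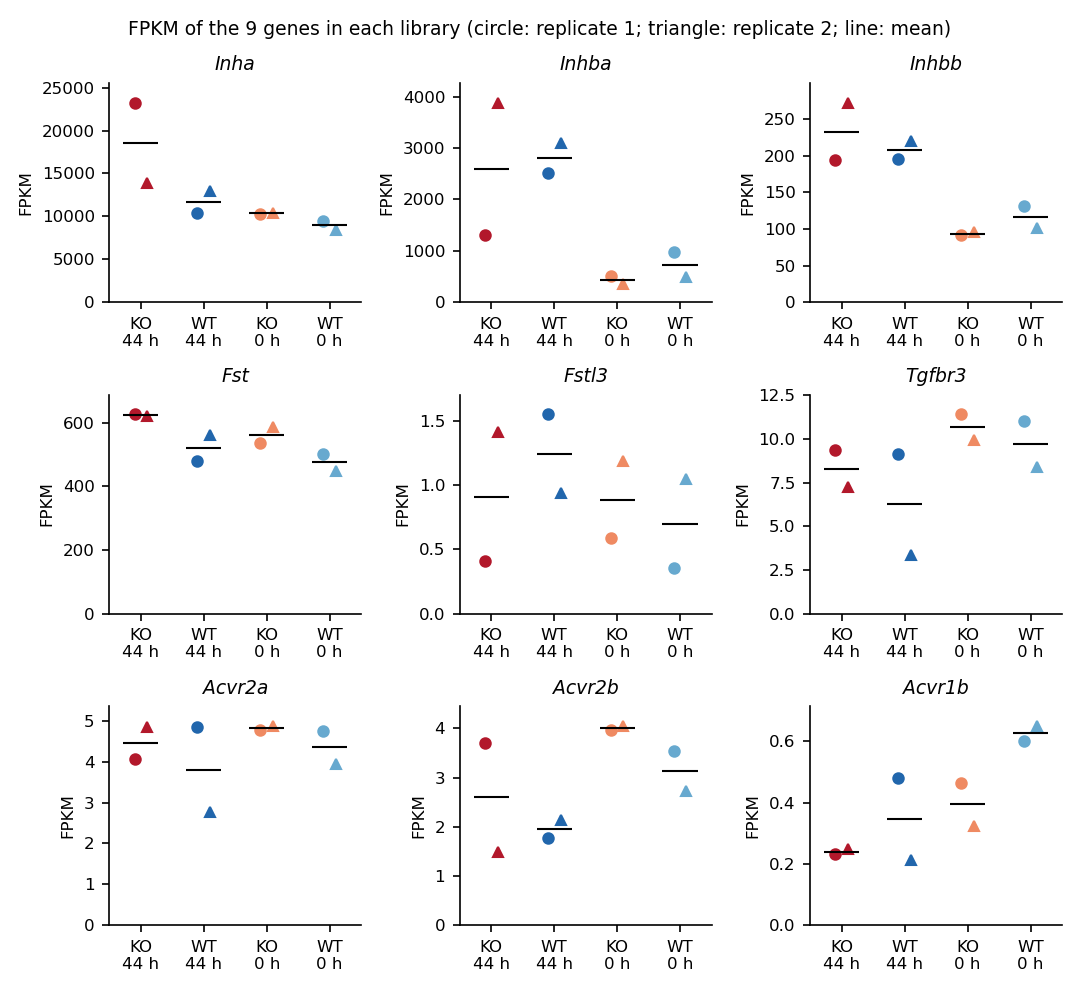
FPKM of each of the 9 genes (linear vertical axes from 0, a separate scale per gene) in the 8 libraries, with circles for replicate 1, triangles for replicate 2 and lines for the group mean. All libraries at 44 h lie above all libraries at 0 h for Inhba and Inhbb, and the KO libraries at 44 h are far apart for Inha (23238 and 13862 FPKM) and Inhba (1300 and 3879 FPKM).

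The balance of beta and alpha subunit RNA was read as a ratio of FPKM within each library, which does not depend on how that library was scaled. Inhba was 5.60% of Inha in the 44 h library labelled KO replicate 1 and 28.0% in KO replicate 2, against 24.1% and 23.8% in 44 h WT cells. At 0 h it was 4.99% and 3.45% in KO, against 10.2% and 5.71% in WT. The library labelled KO replicate 1 at 44 h thus lay below both WT libraries at 0 h and close to the KO libraries at 0 h, while KO replicate 2 lay slightly above WT at 44 h.

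Inhbb was 0.835% of Inha in the 44 h library labelled KO replicate 1 and 1.97% in KO replicate 2, against 1.87% and 1.69% in 44 h WT cells, and 0.890% and 0.924% in 0 h KO cells, against 1.40% and 1.19% in 0 h WT cells. By this ratio the library labelled KO replicate 1 lay just below the 0 h values of KO. Relative to Inhba, Inhbb was 14.9% and 7.03% in 44 h KO cells, against 7.75% and 7.12% in 44 h WT cells, and 17.8% and 26.8% in 0 h KO cells, against 13.7% and 20.9% in 0 h WT cells. Beta B was thus the minor beta subunit RNA in all 8 libraries. No test was run on the ratios.

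Fst, the activin antagonist, stayed within a narrow range. It was 626 and 620 FPKM in 44 h KO cells, against 479 and 561 in 44 h WT cells, and 537 and 586 in 0 h KO cells, against 501 and 449 in 0 h WT cells. The KO libraries lay above the WT libraries at both times, by 0.26 at 44 h (SE 0.159, limma adjusted p = 0.592) and by 0.24 at 0 h (SE 0.159, adjusted p = 0.718). The difference between times was 0.15 in KO (adjusted p = 0.621) and 0.13 in WT (adjusted p = 0.652).

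Fst relative to the summed beta subunits was lower at 44 h. It was 41.9% in the library labelled KO replicate 1 and 14.9% in KO replicate 2, against 89.1% and 128% in 0 h KO cells. In WT it was 17.7% and 16.9% at 44 h, against 45.7% and 77.1% at 0 h. The ratio separated the times in both genotypes, and the library labelled KO replicate 1 lay between the WT libraries of the 2 times.

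**Figure D2:**
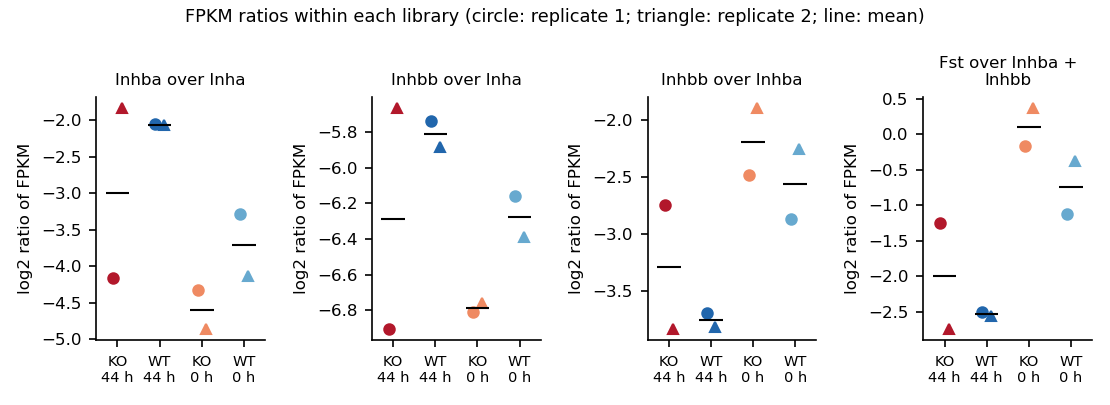
Log2 ratios of FPKM between members within each library (circles, replicate 1; triangles, replicate 2; lines, group means; vertical axes not from 0). In all 4 ratios the 44 h library labelled KO replicate 1 sits apart from the other 3 libraries at 44 h, at 5.60% against 23.8% to 28.0% for Inhba over Inha.

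Fstl3, the second follistatin-like activin antagonist listed, was low, with values on both sides of the filter of 1 FPKM. It was 0.408 and 1.42 FPKM in 44 h KO cells, against 1.55 and 0.938 in 44 h WT cells, and 0.590 and 1.19 in 0 h KO cells, against 0.353 and 1.05 in 0 h WT cells. The groups overlapped in each of the 4 comparisons between groups, with adjusted p (limma) of 0.501 to 0.987. Fst was thus the follistatin gene that was read in quantity in these cells, at a mean of 545 FPKM over the 8 libraries, against 0.937 for Fstl3.

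The receptor genes were read far below the subunit genes, at a few FPKM for those tested and under 1 FPKM for Acvr1b. Tgfbr3, the inhibin co-receptor, was 9.38 and 7.22 FPKM in 44 h KO cells, against 9.13 and 3.37 in 44 h WT cells, and 11.4 and 9.94 in 0 h KO cells, against 11.0 and 8.41 in 0 h WT cells. Its libraries at 44 h lay below those at 0 h in KO (-0.33, SE 0.385, limma adjusted p = 0.652), and in WT the difference was -0.68 with overlapping ranges (adjusted p = 0.322). The WT libraries at 44 h were more than 2-fold apart for this gene, and the WT difference was -1.28 without replicate 1 at 44 h (adjusted p = 0.270) and -0.069 without replicate 2 (adjusted p = 0.935). In KO it was -0.50 without the 44 h library labelled KO replicate 1 and -0.17 without replicate 2.

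Acvr2a and Acvr2b encode the type II receptors. Acvr2a was 4.07 and 4.86 FPKM in 44 h KO cells, against 4.85 and 2.77 in 44 h WT cells, and 4.78 and 4.88 in 0 h KO cells, against 4.76 and 3.96 in 0 h WT cells. Acvr2b was 3.71 in the 44 h library labelled KO replicate 1 and 1.48 in KO replicate 2, against 3.98 and 4.05 in 0 h KO cells. In WT it was 1.76 and 2.14 at 44 h, against 3.53 and 2.72 at 0 h. Acvr2b lay lower at 44 h without overlap in both genotypes, with differences of -0.55 in KO (SE 0.316, limma adjusted p = 0.359) and -0.48 in WT (SE 0.316, adjusted p = 0.387), and the library labelled KO replicate 1 stayed near the 0 h values. In KO the difference was -1.01 without that library (adjusted p = 0.0539) and -0.091 without replicate 2 at 44 h (adjusted p = 0.843). For Acvr2a the time differences were -0.10 and -0.19 (adjusted p = 0.858 in KO and 0.683 in WT). The difference between the receptors was not tested.

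The summed FPKM of 15 oocyte markers was 2144 and 1263 in 44 h KO cells, against 878 and 873 in 44 h WT cells, and 4793 and 4018 in 0 h KO cells, against 1601 and 2838 in 0 h WT cells. These sums were lower at 44 h than at 0 h in KO without overlap and in WT without overlap, as Acvr2b was. They were higher in KO than in WT without overlap at both times, as Inha and Fst were. Over time Inha went the other way, higher at 44 h without overlap in both genotypes. Fst was higher at 44 h in KO without overlap and overlapped in WT. Between genotypes Acvr2b overlapped at 44 h and was higher in KO without overlap at 0 h, as Acvr2a was by a narrow gap. Of all genes tested, 34.1% in KO and 40.6% in WT were lower at 44 h without overlap. Higher in KO than in WT without overlap were 23.9% at 44 h and 27.3% at 0 h. The part of oocyte RNA in the values of the members was not tested. Acvr1b, the type I receptor, was 0.232 and 0.248 FPKM in 44 h KO cells, against 0.480 and 0.214 in 44 h WT cells, and 0.465 and 0.324 in 0 h KO cells, against 0.602 and 0.650 in 0 h WT cells, and it was not tested because of the filter. In order of mean FPKM over the 8 libraries the members ran from Inha (12386) through Inhba (1639), Fst (545), Inhbb (163), Tgfbr3 (8.73), Acvr2a (4.37), Acvr2b (2.92) and Fstl3 (0.937) to Acvr1b (0.402). The ranges of neighbours overlapped from Inhba to Fst, from Tgfbr3 to Acvr2a, from Acvr2a to Acvr2b, from Acvr2b to Fstl3 and from Fstl3 to Acvr1b.

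**Figure D3:**
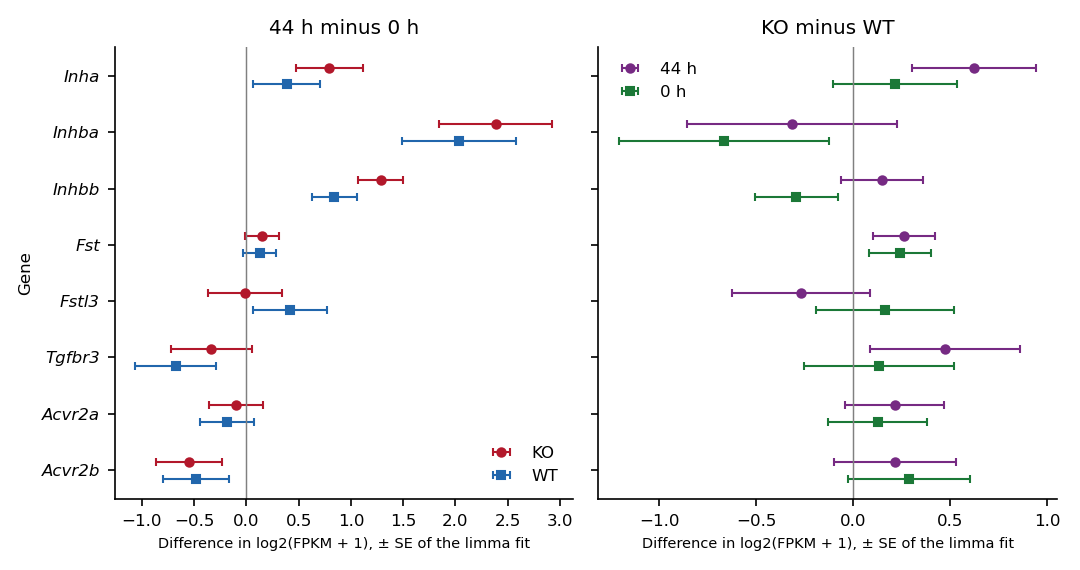
Differences in log2(FPKM + 1) of the 8 tested members, with bars for the standard error of the limma fit, between 44 h and 0 h (left, KO above WT in each row) and between KO and WT (right, 44 h above 0 h in each row). Inhba and Inhbb lie furthest to the right in the time comparison (2.39 and 1.28 in KO), and no genotype difference passed the test.

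Counted over the 8 tested members, the fit over all 8 libraries called 0 in each of the 5 comparisons. For 44 h against 0 h in KO, 0.139% of all genes were called, and 3 members (Inha, Inhba and Inhbb) had an unadjusted p under 0.05, beside 21.1% of all genes. For 44 h against 0 h in WT, 0.0804% of all genes were called, and 2 members (Inhba and Inhbb) had an unadjusted p under 0.05, beside 24.1%. The calls of Inhba and Inhbb in other fits stand against a larger background: 6.90% of all genes were called in the WT libraries fitted alone, 9.74% and 9.72% in WT without the library labelled KO replicate 1 or KO replicate 2 at 44 h, and 8.54% in KO without the library labelled KO replicate 1.

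In the libraries themselves, 4 members (Inha, Inhba, Inhbb and Fst) were higher at 44 h in KO without overlap and 2 (Tgfbr3 and Acvr2b) lower, where 14.3% and 34.1% of all genes were. In WT 3 members (Inha, Inhba and Inhbb) were higher without overlap and 1 (Acvr2b) lower, where 22.5% and 40.6% of all genes were. The median difference over the 8 members was 0.067 in KO and 0.26 in WT, beside -0.11 and -0.13 over all genes tested. Median-of-ratios scaling moved the median of all genes by 0.13 in KO and 0.12 in WT, and under it Inhba differed by 2.54 in KO and 2.18 in WT and Inhbb by 1.44 and 0.98.

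For KO against WT at 44 h, 0.0219% of all genes were called and 0 members, and 0 members had an unadjusted p under 0.05, beside 9.79% of all genes. Inha and Fst were higher in KO without overlap, as were 23.9% of all genes, and 0 members were lower without overlap, beside 15.1%. For KO against WT at 0 h, 0.0365% of all genes were called and 0 members, and again 0 members had an unadjusted p under 0.05, beside 9.69%. Here 4 members (Inha, Fst, Acvr2a and Acvr2b) were higher without overlap, beside 27.3% of all genes, and 1 (Inhbb) lower, beside 19.1%. Acvr2a was separated only narrowly, at 4.78 FPKM in the lower KO library and 4.76 in the higher WT library. The median over the 8 members was 0.21 at 44 h and 0.15 at 0 h, against 0.046 and 0.034 over all genes tested.

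Whether the change over 44 h differed between genotypes was asked with the interaction, the KO change minus the WT change. It was 0.41 for Inha (SE 0.453), 0.35 for Inhba (SE 0.766) and 0.44 for Inhbb (SE 0.301), with a limma adjusted p of 0.9999 for all 8 members. Of all genes 0.0438% were called, and 0 members had an unadjusted p under 0.05, beside 1.82% of all genes. Without the 44 h library labelled KO replicate 1 it was 0.037 for Inha, 1.14 for Inhba and 0.69 for Inhbb. Without KO replicate 2 at 44 h it was 0.78 for Inha, -0.44 for Inhba and 0.20 for Inhbb. The Inhba value also turned to -0.15 without WT replicate 1 at 0 h, and was 0.85 without WT replicate 2 at 0 h. An adjusted p of this size does not show that the changes were alike.

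The rest of the activin pathway was read from a list of 20 further genes: other subunits and receptors, SMADs, convertases that cut the precursors, and modulators. Of these, 13 were tested, and limma called 0 in each of the 5 comparisons. The fitted difference between 44 h and 0 h was positive for 4 of the 13 and negative for 9 in both KO (median -0.15) and WT (median -0.22), where 8299 and 8474 of all 13688 genes tested were negative. Tdgf1 (Cripto), an activin-binding co-receptor of Nodal, had 2.35 and 4.83 FPKM in 44 h KO cells, against 11.3 and 12.1 in 0 h KO cells; the difference was -1.52 (SE 0.271, limma adjusted p = 0.0938). In WT it had 3.56 and 3.57 FPKM at 44 h, against 11.1 and 10.8 at 0 h, and the difference was -1.39 (adjusted p = 0.0852). The convertase gene Pcsk6 differed by -0.81 between times in KO (adjusted p = 0.113). Fkbp1a, which binds type I receptors of the family, differed by 0.94 between times in WT (adjusted p = 0.131) and by -0.64 between KO and WT at 44 h (adjusted p = 0.532).

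Bambi, a pseudoreceptor that dampens signalling of this family, had 4.20 and 6.13 FPKM in 44 h KO cells, against 2.83 and 1.97 in 44 h WT cells (0.85, SE 0.244, limma adjusted p = 0.491). At 0 h it had 6.15 and 5.41 FPKM in KO, against 3.03 and 3.67 in WT (0.64, adjusted p = 0.476). KO and WT did not overlap at either time, as with the sums of oocyte markers. Beside this, 23.9% of all genes tested were higher in KO without overlap at 44 h, and 27.3% at 0 h. Between times Bambi overlapped in KO and was lower at 44 h in WT, while those sums were lower at 44 h in both. Pcsk6 lay higher in 0 h KO cells as well (0.46, adjusted p = 0.508). In the interaction the smallest unadjusted p belonged to Fstl1 (-0.89) and Smad4 (0.46), both with an adjusted p of 0.9999.

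Genes whose profile over the 8 libraries was most like that of a member were picked by Pearson's r of log2(FPKM + 1). The candidates were 8119 tested genes outside the members with a mean of at least 5 FPKM. Symbols with the name pattern of predicted, clone or short RNA genes (such as Gm, Rik and Mir) had been left out. The 8 libraries fall into groups by time and genotype, so these r describe differences that the genes share between groups and between replicates, and carry no test. For Inha they were Tmsb15b1 (r = 0.990), Ifitm2 (0.972) and Spin2 (0.972). Tmsb15b1 was 132 FPKM in the 44 h library labelled KO replicate 1 and 66.6 in KO replicate 2, against 49.9 and 70.6 in 44 h WT cells. All 3 belong to families with closely similar copies, so their levels are uncertain. For Inhba they were BC013529 (0.990), Crip1 (0.990) and Ccdc126 (0.984), with Crip1, a LIM domain protein gene, at 222 FPKM in the 44 h library labelled KO replicate 1 and 555 in KO replicate 2, against 409 and 446 in 44 h WT cells. For Inhbb they were Mif4gd (0.988), Prkra (0.979) and Greb1 (0.968), the last an oestrogen-responsive gene. For Fst they were Ramp1 (0.951), Sesn2 (0.915) and Pi4k2a (0.901), and Ramp1 was 25.8 and 22.6 FPKM in 44 h KO cells, against 8.85 and 11.8 in 44 h WT cells, and 11.1 and 15.2 in 0 h KO cells, against 6.39 and 5.55 in 0 h WT cells.

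Markers of other cells also differed between the libraries that separate the subunit genes. The 9 theca and stroma markers summed to 240 and 344 FPKM in 44 h KO cells, against 306 and 280 in 44 h WT cells, and to 134 and 96.0 in 0 h KO cells, against 107 and 111 in 0 h WT cells. Cyp17a1 alone gave 81.9 and 125 in 44 h KO cells and 137 and 97.7 in 44 h WT cells, against 1.95 to 21.6 at 0 h. In KO all markers of this list but Cyp17a1 and Dcn overlapped between times. In WT Dcn, Lum, Col1a1, Col1a2 and Acta2 were also higher at 44 h without overlap. The 9 surface epithelium and oviduct markers summed to 48.8 in the 44 h library labelled KO replicate 1 and 529 in KO replicate 2, against 465 and 139 in 44 h WT cells, and to 103 and 30.6 in 0 h KO cells, against 67.2 and 65.4 in 0 h WT cells. Ovgp1 alone gave 279 of the 529 in KO replicate 2 and 366 of the 465 in WT replicate 1 at 44 h, against 3.04 and 6.05 in the other 44 h libraries. Of the 10 immune marker symbols 9 were in the table, and they summed to 377 and 429 in 44 h KO cells, 295 and 210 in 44 h WT cells, 844 and 152 in 0 h KO cells and 220 and 197 in 0 h WT cells. The 6 endothelial markers summed to 6.81 to 19.9. Every granulosa, oocyte, theca and stroma, surface epithelium and oviduct, immune and endothelial marker in the table was above 0 in all 8 libraries. Their part in the values of Inha, Inhba and Inhbb was not tested.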

How the data were processed

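The authors deposited 1 table of FPKM values per gene symbol and library, per the file headers. Per the submitters' processing notes the tools were TopHat2 2.1.1 with Cufflinks 2.2.1 and the build was mm9; how each was used is not recorded. No source used here gives the annotation, the filters or the use of strand, so overlapping or antisense genes could not be told apart. FPKM scaling makes a value depend on all other genes of its library. Depth is known only relative to other libraries.

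Genes with at least 1 FPKM in at least 2 libraries were kept, and log2(FPKM + 1) was fitted across all genes with limma 3.58.1 in R 4.3.3 (a mean for each of 4 groups, trend, two-sided, 4 residual degrees of freedom, Benjamini-Hochberg over all genes tested within a comparison). An adjusted p under 0.05 made a call. The fit was tested on simulated data with the same spread in every gene and group. That test therefore does not cover the wider spread of the KO pair at 44 h. Sequences came from RefSeq tables of GRCm38.p6, a build other than mm9.

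Named were all 9 members, up to 2 other pathway genes with the smallest p per comparison, and the 3 genes most like each of Inha, Inhba, Inhbb and Fst. BC013529 is a clone-style name that the rule's prefixes did not remove. The members and lists were chosen with earlier results of these data known. Alternatives covered scaling, pseudocount, filter, replicate block, groups fitted, robust estimation and leaving out libraries. A fit without both KO libraries at 44 h and a crossed replicate block were added after seeing the data. A further marker list is not reported here.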

Additional observations from a re-analysis of the deposited data

How the results depend on the processing

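The count of members called (0 in each of the 5 comparisons) became 2 (Inhba and Inhbb, both higher) for 44 h against 0 h in WT with only the groups compared (2) or, in a fit added after seeing the data, without both KO libraries at 44 h (2), and it ranged from 0 to 2 when 1 library was left out, in KO and in WT. In the other 3 comparisons it was 0 under every alternative run. Over 40 member differences and all alternatives, 605 of 649 values kept their direction and side of the threshold, 10 newly passed and 34 turned sign or reached 0. Many alternatives could not turn a sign: filters, the replicate block, robust estimation, the groups fitted and leaving out a library of an uncompared group change only p. With 0 members called over all 8 libraries, the side of the threshold could change only by a new call. The 605 are therefore no measure of stability.

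Quantile normalization set Inha to 0 for KO against WT at 44 h and for 44 h against 0 h in KO, since the top entry of each library is given the same value, and made its interaction -0.45. It also gave -0.0070 for Acvr2a between genotypes at 0 h, 0.030 for Fstl3 and 0.057 for Acvr2a between times in KO, and -0.0025 for Fst between times in WT. Median-of-ratios scaling gave 0.048 for Fstl3 and 0.032 for Acvr2a between times in KO. The cause of these small reversals was not tested.

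With 1 library left out, differences ranged between genotypes at 0 h from -0.14 to 0.46 for Fstl3 and from -0.043 to 0.31 for Tgfbr3. Between genotypes at 44 h they ranged from -1.10 to 0.47 for Inhba, from -0.66 to 0.12 for Fstl3, from -0.25 to 0.68 for Acvr2b, from -0.097 to 0.39 for Inhbb, from -0.13 to 1.08 for Tgfbr3 and from -0.10 to 0.53 for Acvr2a. Between times they ranged from -0.41 to 0.37 for Fstl3 and from -0.20 to 0.0055 for Acvr2a in KO, and from -0.50 to 0.13 for Acvr2a in WT. The interaction ranged from -0.44 to 1.14 for Inhba, from -0.23 to 0.40 for Acvr2a, from -0.53 to 0.39 for Acvr2b, from -0.090 to 0.14 for Fst and from -0.27 to 0.95 for Tgfbr3.

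No shared effect of the replicate numbers was seen: deviations of same-numbered libraries correlated at -0.11 to -0.0068 between groups. Whether same-numbered libraries were collected or handled together cannot be told from these values. With the replicate block limma called 6 genes for 44 h against 0 h in KO (19 without it), 7 in WT (11) and 0 members. With the KO numbers at 44 h crossed, added after seeing the data, it called 27 and 3 genes for 44 h against 0 h in KO and for KO against WT at 44 h, and 0 members.

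The number of all genes called depended on the KO pair at 44 h. For 44 h against 0 h in WT it was 11 over all 8 libraries, 945 with only the groups compared, 1333 and 1330 without either KO library at 44 h, 30 with median-of-ratios scaling, 34 with robust estimation and 4 to 9 without a library of the other groups. For 44 h against 0 h in KO it was 19, and 1169 without the library labelled KO replicate 1, 32 without KO replicate 2, 35 with robust estimation, 10 with a pseudocount of 0.1, 9 with only the groups compared, 6 without the filter and 3 to 14 without another library. For KO against WT at 44 h it was 3, and 801 without KO replicate 2. The interaction called 6 genes, and 78 without KO replicate 2, and KO against WT at 0 h called 5, with 3 to 9 elsewhere. Depth limits what can be said of Fstl3 and Acvr1b, whose FPKM lay near or below the filter of 1.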
